A study of Mus musculus with 2 samples.

Results

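Proximal tubule S1-like nuclei are nuclei that carry the transcripts of the first, convoluted stretch of the proximal tubule. They were chosen by the levels of 13 genes in single-nucleus RNA sequencing of mouse kidney. A barcode needed at least 2000 unique molecular identifiers (UMIs, each standing for 1 captured RNA molecule) and at most 10% UMIs of mitochondrially encoded genes. The proximal tubule genes Lrp2, Cubn, Slc34a1, Slc13a1 and Slc13a3 together had to make up at least 0.5% of its UMIs. The 4 S1 markers Slc5a12, Slc5a2, Nox4 and Slc7a7 then had to sum to more UMIs than Slco1a6 and Slc22a6, and Cyp7b1 and Ctnna2 to no more than Slc34a1, Slc22a6 and Slc5a12. This selected 1584 of 6383 barcodes, of which 899 came from the nephrectomy library and 685 from the sham library.

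The S1 segment receives the glomerular filtrate first. Its cells take back glucose, amino acids, bicarbonate, phosphate and filtered protein through carriers and endocytic receptors on the brush border, and they meet much of their energy need by oxidising fatty acids. The nuclear receptor PPAR-alpha switches on genes of fatty acid use, above all in fasting. The same cells make and break down the active form of vitamin D.

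The study compared frozen kidney of mice after 5/6 nephrectomy with that of sham-operated mice, to follow scarring of the remnant kidney, and its title names chondroitin sulfate N-acetylgalactosaminyltransferase 1 (Csgalnact1) and versican. Nephrectomised animals were 11-week-old male T1+/+ mice in which the right kidney was taken out and, 1 week later, both poles of the left one were tied off with suture. Sham animals had both flanks opened and closed again with the kidneys left in place. Kidneys were collected 4 weeks after surgery and nuclei were captured on the 10x Genomics Chromium system. The labels give neither the number of animals behind a library nor the meaning of T1+/+, and the age, sex and genotype are stated for the nephrectomised animals only.

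Each group was 1 library, so no difference below has a replicate check and none was tested. Levels are UMIs summed over the nuclei of a class per 1000000 UMIs of that class (CPM), ratios are nephrectomy over sham, and values in brackets after a ratio are 95% intervals that cover counting error only. The S1-like nuclei held 11588034 UMIs in the nephrectomy library and 7632371 in the sham library, with medians of 10477 and 8978 UMIs per nucleus. Mitochondrially encoded genes made up a median of 0.735% and 0.842% of their UMIs. Among all nuclei inside the proximal tubule gate, S1-like ones were 80.4% in the nephrectomy library and 69.5% in the sham library, against 18.9% and 28.6% that were S2-like. These shares are a description, since levels of the choosing genes differed between the libraries. The libraries shared 2 barcodes, 1 of which was S1-like in both.

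The choice was not a sharp one for some nuclei. In each library 17 S1-like nuclei exceeded the S2 markers by 1 UMI only, with medians of 4 S1 marker UMIs in nephrectomy and 5 in sham nuclei. Just outside, 15 nephrectomy and 12 sham nuclei had equal sums of both marker sets, with medians of 7 and 4.5 S1 marker UMIs. Within 5 UMIs of the limit lay 80 nephrectomy and 72 sham nuclei on the inside, and 84 and 69 nuclei on the outside. The S1 markers made up at least 1% of all UMIs in 462 nephrectomy and 310 sham nuclei.

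The label was checked against its markers, whose levels chose the nuclei and are therefore a description. Slc5a12, the sodium-lactate cotransporter of the early proximal tubule, lies on the plus strand at chr2:110597298-110647779 (GRCm38) and stood at 6293 CPM in nephrectomy and 5413 CPM in sham nuclei. Slc5a2, the low-affinity glucose carrier SGLT2 that marks the early segments, lies on the plus strand at chr7:128265657-128272430 and stood at 342 and 547 CPM. The NADPH oxidase Nox4 had 2193 CPM in nephrectomy and 2547 CPM in sham nuclei, and the basolateral amino acid exchanger Slc7a7 had 694 and 636 CPM. In nuclei thinned to 2000 UMIs each, Slc5a2 was seen in 45.5% of nephrectomy and 60.1% of sham S1-like nuclei, against 3.81% and 4.46% of thick ascending limb-like nuclei (367 and 381 nuclei with medians of 7314 and 6280 UMIs), which should lack it. Before thinning, 80.1% and 87.9% of S1-like nuclei had a UMI, against 14.2% and 15.5% of those of the thick limb. Since these 4 genes chose the nuclei, their levels follow from the rule and support nothing further. Among the gate genes, the sulfate carrier Slc13a1 had 3947 CPM in nephrectomy and 1529 CPM in sham nuclei, and the endocytic receptor megalin (Lrp2) had 1046 and 1786 CPM.

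The S1-like nuclei of the 2 libraries stood apart in some clusters and mixed in others when clustered on genes outside the choosing rule and the fixed gene lists. Of the 8 clusters, cluster 5 held 156 nephrectomy nuclei and 0 of 685 sham nuclei, of which a floor of 3 nuclei would be 0.438%. Cluster 6 held 106 sham nuclei and 0 of 899 nephrectomy nuclei, of which the same floor would be 0.334%. Cluster 4 held 5 nephrectomy and 164 sham nuclei. Cluster 1 mixed 371 nephrectomy and 108 sham nuclei, and cluster 3 mixed 145 and 57. With 1 library a group, a cluster made of 1 library may be a property of that library. The clusters therefore carry numbers and no names.

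Clusters 1 and 4 were richest in the S1 markers, with medians of 1.39% and 1.3% of UMIs, while clusters 3, 5 and 6 held 0.441%, 0.484% and 0.779%. Slc5a2 was likewise higher in clusters 1 and 4, at 580 and 911 CPM, than in clusters 3, 5 and 6, at 211, 136 and 330 CPM. Among the 10 leading genes of cluster 3 were Nxph1, Esr1 and Glt1d1, which were higher in S2-like than in S1-like nuclei of both libraries. The rule gene Cyp7b1 was another, at 149 CPM in cluster 3 against 5.75 CPM in cluster 1. Whether cluster 3 holds nuclei of later segments was not tested. Cluster 2 (151 nephrectomy and 190 sham nuclei) was shallow, with a median of 4268 UMIs and 2.4% mitochondrial UMIs. Clusters 7 (37 and 30 nuclei) and 8 (34 and 30) had genes of distal tubule (Slc8a1, Trpm6) and of endothelium (Flt1, Ptprb) among their 10 leading genes. They also had the highest median doublet scores, 0.252 and 0.161. Because of this, results are given for all S1-like nuclei and, where they move, without clusters 2, 7 and 8 (677 nephrectomy and 435 sham nuclei left), and within clusters 1 and 3, which both libraries fill.

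**Figure D1:**
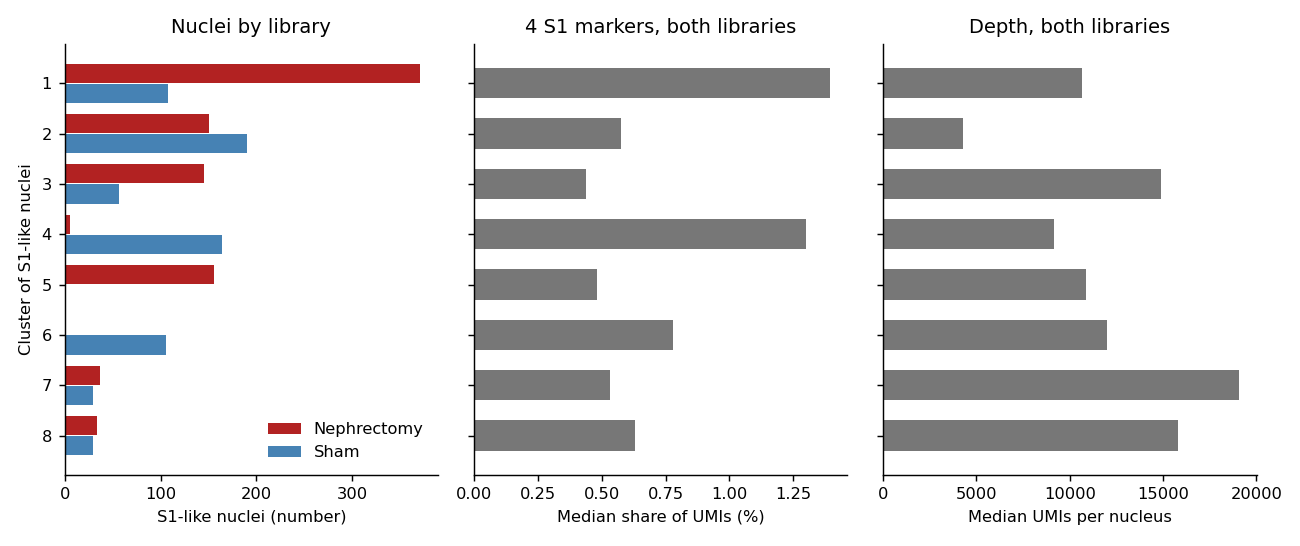
Nuclei per cluster (left, red nephrectomy and blue sham), median share of UMIs from the 4 S1 markers (middle, %) and median UMIs per nucleus (right) in the 8 clusters of S1-like nuclei. Clusters 4 and 6 are almost wholly sham and cluster 5 is wholly nephrectomy, while clusters 1 and 4 carry the most S1 marker UMIs.

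Markers of other cell types were present at low levels in both libraries. The 6 thick ascending limb markers summed to 547 CPM in nephrectomy and 719 CPM in sham S1-like nuclei, against 24470 and 25337 CPM in thick ascending limb-like nuclei. Without clusters 2, 7 and 8 the sums were 219 and 236 CPM. The 6 endothelial markers summed to 152 and 172 CPM, and to 18.1 and 21.6 CPM without those clusters. The 5 markers of injured proximal tubule summed to 149 CPM in nephrectomy and 121 CPM in sham nuclei. Connecting tubule markers reached 718 and 798 CPM, and 151 and 64.4 CPM without clusters 2, 7 and 8. The largest sum among the other 8 lists was that of distal convoluted tubule, at 263 CPM in nephrectomy and 230 CPM in sham nuclei, and 91.6 and 40.2 CPM without those clusters. The smallest was that of lymphocytes, at 8.8 and 7.6 CPM. At 0 UMIs in sham nuclei were 1 of the 5 injured tubule markers, 1 of 5 lymphocyte markers and 1 of 5 markers of parietal epithelium and thin limb. The part of these cells in the results below was not tested beyond leaving out the clusters.

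Against S2-like nuclei, the next segment downstream (211 nephrectomy and 282 sham nuclei), the S1-like nuclei had a set of high genes outside the rule. Since both classes were cut from the same nuclei by marker genes, these values are a description. Of 11037 genes with at least 50 UMIs in each library, 526 (4.77%) were at least 1.5 times higher in S1-like nuclei of both libraries and 370 (3.35%) at least 1.5 times lower. Among the 12 highest were Col8a1, Ano3, Dgkb, Slc7a2, Gpat3, Angpt1, Zfp516, Slitrk1, Sec16b, Slc22a29 and Sptlc3.

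Col8a1, a collagen VIII chain, had 107 CPM in S1-like and 1.93 CPM in S2-like nuclei of the nephrectomy library, and 126 CPM against 0 UMIs in the sham library. Angpt1, the vessel-stabilising ligand angiopoietin 1, had 427 and 27.9 CPM in the nephrectomy library and 545 and 4.46 CPM in the sham library. The cationic amino acid carrier Slc7a2 had 55.2 and 3.1 CPM in nephrectomy nuclei and 50.05 and 0.595 CPM in sham nuclei. Gpat3, which starts triglyceride synthesis, had 73.7 and 4.26 CPM, and 61.3 and 1.19 CPM. In both libraries each of these 4 genes was far higher in S1-like than in S2-like nuclei.

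At the other end, Cntnap5a, Ido2, Glt1d1, Cyp2d9, Nxph1, Esr1, C8a and Slc6a18 were lowest in S1-like relative to S2-like nuclei. The estrogen receptor gene Esr1 had 29.9 CPM in S1-like and 106 CPM in S2-like nephrectomy nuclei, and 24.4 and 120 CPM in sham nuclei. The glycine carrier Slc6a18 had 149 and 498 CPM in the nephrectomy library and 100 and 411 CPM in the sham library. The ratios of these 8 genes were close to each other in both libraries, at 3.34 to 4.64 times higher in S2-like nuclei of the nephrectomy library and 3.85 to 4.91 times in the sham library.

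**Figure D2:**
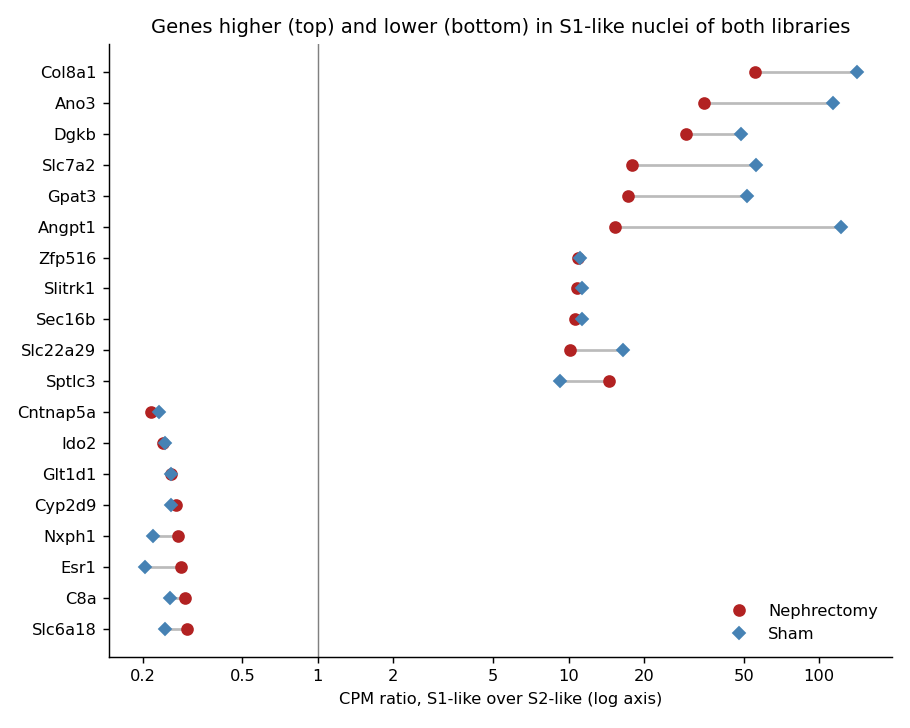
CPM ratio of S1-like over S2-like nuclei (log axis) for 19 genes outside the rule, red circles nephrectomy and blue diamonds sham, with counts under 3 set to 3. The 11 upper genes are far above 1 and the 8 lower ones near 0.2 to 0.3 in both libraries. The sham ratio is the larger for genes such as Angpt1, Ano3, Col8a1, Slc7a2 and Gpat3.

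Nephrectomy was compared with sham over the S1-like nuclei to ask how their transcripts differ in the remnant kidney. Summed levels of fatty acid oxidation, PPAR-alpha target and chaperone genes differed in the same direction in S2-like nuclei. Of 29 genes of fatty acid oxidation 15 were at least 1.5 times higher in nephrectomy nuclei, and Pdk4 and Cyp4a14 were among the genes with the highest ratios. Lower were 14 of 18 endoplasmic reticulum chaperones, a list settled after its values had been seen. So were 11 of 19 male-biased genes, among them Kap, which was at background level. Lists count genes from 20 UMIs, where 10.6% of all genes were at least 1.5 times higher and 10.9% at least 1.5 times lower. Of 15 genes of S1 transport outside the rule 0 differed by 1.5 times. Of 12554 genes with at least 50 UMIs over both libraries, 1055 (8.4%) were at least 1.5 times higher in nephrectomy nuclei and 1145 (9.12%) at least 1.5 times lower. The median log2 ratio of all these genes was 0.02.

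How far such differences were shared by all S1-like nuclei depended on the cluster. Without clusters 2, 7 and 8, 899 of the 1039 higher genes that could be measured there stayed past 1.5-fold, and 821 of 1102 lower genes. Within cluster 1 alone this held for 397 of 869 higher and 390 of 869 lower genes, and within cluster 3 for 392 of 746 and 463 of 794. The direction was the same for 748 and 766 of the 869 genes measured in cluster 1.

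Pdk4, the kinase that shuts pyruvate out of oxidation, lies on the minus strand at chr6:5483351-5496309 and had 137 CPM in nephrectomy and 11.01 CPM in sham nuclei, a ratio of 12.4 (9.96 to 15.6). Its ratio was 7.28 (3.63 to 17.1) in cluster 1 and 3.02 (2.15 to 4.36) in cluster 3. Thick ascending limb-like nuclei had 90.1 CPM in the nephrectomy and 71.8 CPM in the sham library, so in sham kidney Pdk4 was lower in S1-like nuclei than there. The fatty acid hydroxylase Cyp4a14 had 480 and 55.6 CPM, a ratio of 8.64 (7.82 to 9.56), and its ratio was 6.38 (4.57 to 9.17) in cluster 1 and 3.19 (2.73 to 3.74) in cluster 3. The fasting-induced transcription factor gene Creb3l3 had 99 UMIs in nephrectomy and 8 UMIs in sham nuclei. In cluster 1 it had 41 and 2 UMIs, and in cluster 3 it had 10 and 2 UMIs, a ratio of 1.88 with an interval of 0.402 to 17.7 that includes 1. These 3 genes are PPAR-alpha targets in liver. Over all S1-like nuclei each was higher in the nephrectomy library, and each ratio was smaller in cluster 3.

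Among the lists, 25 were set up for the comparison and 1, of chaperones, was added after values of single genes had been seen. Their members count from 20 UMIs over both libraries, and at that level 10.6% of 14472 genes were at least 1.5 times higher in nephrectomy nuclei and 10.9% at least 1.5 times lower. Of 23 measured PPAR-alpha and fasting targets 16 were higher and 1 was lower, with a median log2 ratio of 0.82. Within cluster 1 the count was 8 higher and 1 lower of 21, with a median of 0.43, and within cluster 3 it was 7 and 1 of 20, with a median of 0.42. Over all S1-like nuclei the member that was lower was Cd36, a fatty acid receptor, with 32.5 CPM in nephrectomy and 59.6 CPM in sham nuclei. Cd36 was also the lower member in cluster 3, but in cluster 1 that member was Aqp7, with a log2 ratio of -0.67. G0s2, which restrains triglyceride breakdown, had 41.7 and 51.4 CPM.

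Of 29 measured genes of fatty acid oxidation 15 were higher and 1 lower, with a median log2 ratio of 0.59 in all S1-like nuclei. Within cluster 1 the count was 5 higher and 0 lower, with a median of 0.33, and within cluster 3 it was 6 and 0, with a median of 0.27. Ehhadh, an enzyme of peroxisomal beta-oxidation, had 433 CPM in nephrectomy and 146 CPM in sham nuclei, a ratio of 2.97 (2.78 to 3.17). Cpt1a, the gate for fatty acids into mitochondria, had 305 CPM in nephrectomy and 191 CPM in sham nuclei, a ratio of 1.596 (1.5 to 1.7). The mitochondrial acyl-CoA dehydrogenase Acadvl stood at 31.7 CPM in nephrectomy and 41.8 CPM in sham nuclei, and Acads at 34.2 and 40.9 CPM. The electron carrier subunit Etfb was the lower member, at 90.1 CPM in nephrectomy and 136 CPM in sham nuclei.

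The fuel genes also varied between clusters of 1 library. The 25 PPAR-alpha and fasting targets summed to 6003 CPM in cluster 5, which is all nephrectomy, to 3285 CPM in nephrectomy nuclei of cluster 1 and to 4353 CPM in those of cluster 3. In sham nuclei they summed to 2419 CPM in cluster 1, 2840 CPM in cluster 3 and 1350 CPM in cluster 4. So in each mixed cluster the sum was higher in nephrectomy nuclei, and sham cluster 4 had the least. The difference was not particular to S1-like nuclei. In S2-like nuclei the targets summed to 5068 CPM in nephrectomy and 2283 CPM in sham, against 4035 and 1887 CPM in all S1-like nuclei. The 30 genes of fatty acid oxidation summed to 11068 and 6848 CPM in S2-like nuclei, against 9016 and 4829 CPM in S1-like nuclei.

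**Figure D3:**
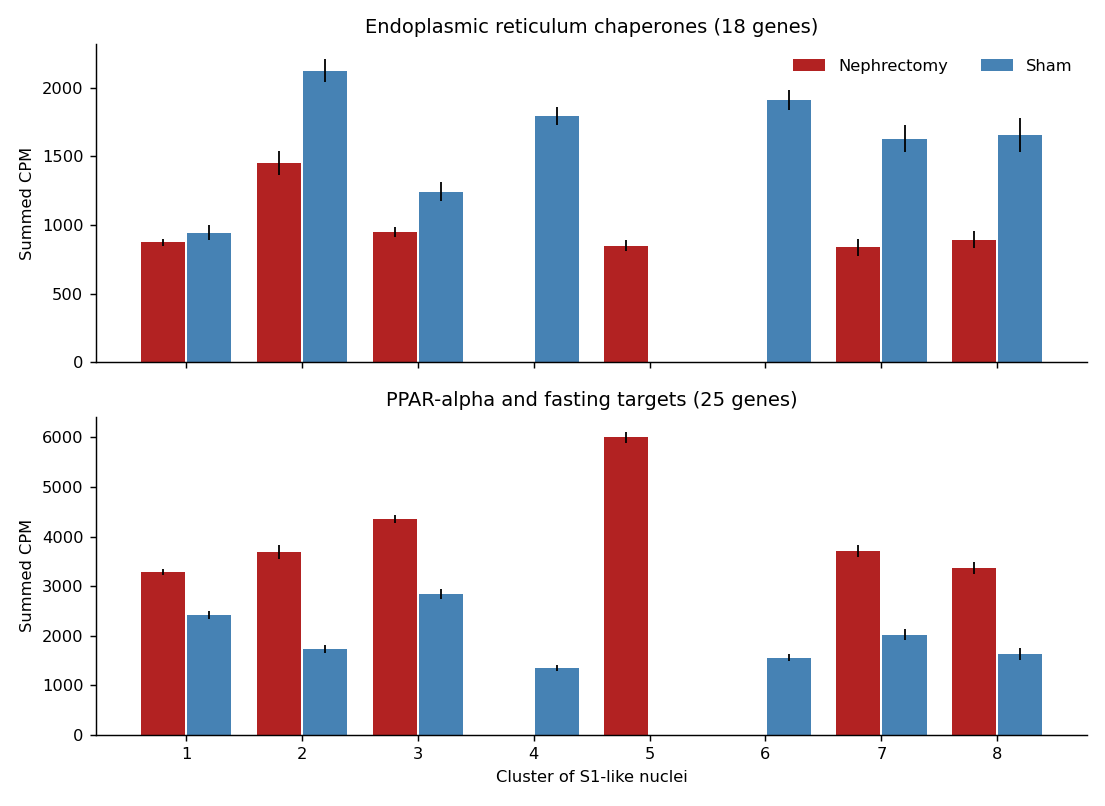
Summed CPM of 18 endoplasmic reticulum chaperones (top) and 25 PPAR-alpha and fasting targets (bottom) in each cluster of S1-like nuclei, red nephrectomy and blue sham, with 95% Poisson intervals for counting error; clusters with under 30 nuclei of a library are not drawn. In cluster 1 the chaperone sums are 873 CPM in nephrectomy and 942 CPM in sham nuclei, while sham clusters 4 and 6 reach 1793 and 1908 CPM.

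Chaperones of the endoplasmic reticulum fold new membrane and secreted proteins, and many of their genes share a control element that stress sensors of that compartment act through. The element, CCAAT and CCACG with 9 bases between them, was searched on both strands of the 250 bases before the start of each gene in RefSeq (GRCm38.p6). It was found for 7 of the 16 chaperone genes with an entry, against 0.113% of 32851 entries, and is shown here because 14 of the 18 genes on the chaperone list were lower in nephrectomy nuclei. Capitals mark the 19-base match and lower case the 5 bases on either side, read 5′ to 3′ along the element.
Hspa5, chr2:34772020-34772048, plus strand: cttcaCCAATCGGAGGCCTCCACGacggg
Hsp90b1, chr10:86705633-86705661, minus strand: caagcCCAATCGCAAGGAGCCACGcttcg
Hsp90b1, chr10:86705528-86705556, plus strand: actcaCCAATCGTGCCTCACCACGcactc
Pdia6, chr12:17266486-17266514, plus strand: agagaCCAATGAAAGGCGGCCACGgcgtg
Calr, chr8:84847070-84847098, plus strand: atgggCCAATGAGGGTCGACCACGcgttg
Dnajc3, chr14:118937822-118937850, plus strand: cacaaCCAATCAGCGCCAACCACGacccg
Creld2, chr15:88819515-88819543, minus strand: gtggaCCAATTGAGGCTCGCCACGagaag
Canx, chr11:50325795-50325823, minus strand: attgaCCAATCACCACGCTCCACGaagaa

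The match in Hspa5 starts 65 bases before the RefSeq start, and those in Hsp90b1 start 212 and 107 bases before it. Of the 8 matches 5 read with the gene and 3 against it. The match is a description of these letters and says nothing of binding. It was 1 of 14 motifs searched in these windows, and its matches were seen before the list was settled. A second form of the element, ATTGG and CCACG with 1 base between them, was found for Herpud1 alone among the listed genes and in 0.0304% of all entries. The other 12, 4 forms of the HNF1 motif, 2 of the HNF4 motif, 5 of the nuclear receptor repeat and the cAMP response element, were found for 0 of the 16 chaperone genes.

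Of the 18 chaperone genes 14 were lower in nephrectomy S1-like nuclei and 0 were higher, with a median log2 ratio of -1.26. The list was settled after the values of all 18 genes had been seen, so its count is no independent evidence of direction. The transcription factor genes Xbp1, Ddit3 and Atf4 were looked at with them and left off the list, and with these 3 included 15 of 21 genes were lower, 0 were higher and the median was -1.07. Xbp1 had 28.1 CPM in nephrectomy and 53.6 CPM in sham nuclei, Ddit3 had 15.9 and 20.7 CPM, and Atf4 had 33.5 and 42.5 CPM. Hspa5, the main luminal chaperone BiP, had 46.3 CPM in nephrectomy and 148 CPM in sham nuclei, 3.19 times lower (2.88 to 3.54). Hsp90b1, its partner GRP94, had 59.0 CPM in nephrectomy and 173 CPM in sham nuclei, a ratio of 0.341 (0.31 to 0.374). The co-chaperone gene Hyou1 had 10.4 and 35.2 CPM, and the disulfide isomerase gene Pdia6 had 20.02 and 56.7 CPM. Herpud1, which feeds misfolded proteins to degradation, stood at 259 CPM in nephrectomy and 230 CPM in sham nuclei.

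The sham nuclei differed among themselves in these genes. In cluster 1 the 18 genes summed to 873 CPM in nephrectomy and 942 CPM in sham nuclei, and 4 of 17 measured members were lower in nephrectomy nuclei, with a median log2 ratio of -0.05. In sham clusters 4 and 6 they summed to 1793 and 1908 CPM. Against sham cluster 1, 13 of 17 members were at least 1.5 times higher in sham cluster 4 and 15 of 17 in sham cluster 6. Hspa5 alone had 41.9 CPM in nephrectomy nuclei of cluster 1 and 42.1 CPM in those of cluster 5, against 53.3 CPM in sham cluster 1, 167 CPM in sham cluster 4 and 137 CPM in sham cluster 6. In cluster 3, 8 of 17 members were lower in nephrectomy nuclei and the median was -0.48. Over all S1-like nuclei the median was -1.26, against -0.05 within cluster 1. The chaperone genes outside the fixed lists could enter the genes used for clustering. Thick ascending limb-like nuclei had summed levels of 991 CPM in the nephrectomy and 1352 CPM in the sham library. S2-like nuclei had 889 CPM in nephrectomy and 1662 CPM in sham, close to the 923 and 1633 CPM of all S1-like nuclei.

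Male-biased genes, which androgens drive in mouse proximal tubule, were lower in nephrectomy nuclei for 11 of 19 measured members and higher for 1, with a median log2 ratio of -1.02. The medians were -0.22 within cluster 1 and -0.70 within cluster 3. Kap, the kidney androgen-regulated protein gene, lies on the minus strand at chr6:133849851-133853762 and had 790 CPM in nephrectomy and 4005 CPM in sham S1-like nuclei, 5.07 times lower (4.95 to 5.19). It stood at 743 CPM in nephrectomy and 3557 CPM in sham thick ascending limb-like nuclei, and after thinning 62.1% and 96.3% of those had a UMI, against 63.3% and 94.2% of S1-like nuclei. By this measure Kap in S1-like nuclei was at background, so its ratio cannot be read as a difference in their own expression. The cystine carrier Slc7a13, a gene of the straight segment, had 30.1 and 187 CPM in S1-like nuclei, against 24.3 and 94.3 CPM in thick ascending limb-like nuclei. Ldc1 had 5.52 and 34.5 CPM, against 4.19 and 9.25 CPM there. Cyp4a12b was the member that was higher, with 18.3 and 10.1 CPM.

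Slc22a28, an organic anion carrier gene, was lower at levels well above those of free RNA. It had 284 CPM in nephrectomy and 908 CPM in sham S1-like nuclei, 3.2 times lower (3.07 to 3.33), against 23.1 and 47.7 CPM in thick ascending limb-like nuclei. Its ratio was 0.486 (0.441 to 0.535) in cluster 1 and 0.493 (0.447 to 0.543) in cluster 3. Of the 10 measured female-biased genes 4 were higher and 1 was lower, with medians of 0.09 in all S1-like nuclei, 0.42 in cluster 1 and -0.34 in cluster 3.

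Of the 15 genes of early proximal tubule transport outside the rule 0 were higher and 0 lower past 1.5-fold, with a median log2 ratio of -0.11. The neutral amino acid carrier Slc6a19 had 429 CPM in nephrectomy and 364 CPM in sham nuclei, and the cystine carrier Slc7a9 had 272 and 225 CPM. The sodium-proton exchanger Slc9a3 had 221 CPM in nephrectomy and 277 CPM in sham nuclei, and the scaffold gene Pdzk1 had 387 and 482 CPM. The 15 genes together summed to 9073 CPM in nephrectomy and 9065 CPM in sham S1-like nuclei, against 7651 and 6236 CPM in S2-like nuclei.

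Other transport lists held up to 4 higher and up to 2 lower genes each. Of 18 amino acid carriers 3 were higher and 1 lower. The taurine carrier Slc6a6 had 666 CPM in nephrectomy and 384 CPM in sham nuclei, and Cltrn, the partner protein of brush border amino acid carriers, had 364 and 586 CPM. Neither Slc6a6 nor Cltrn was among the members past 1.5-fold within cluster 1 or within cluster 3. Of 17 genes of sodium, bicarbonate and water handling 0 were higher and 2 lower, Cldn10 with 275 and 536 CPM and Fxyd2 with 665 and 1036 CPM. Without clusters 2, 7 and 8 only Cldn10 was lower. Within cluster 1 the only lower member was Car4, and within cluster 3 0 of 16 were lower. Of 15 genes of sugar handling 2 were higher, and the glucose 6-phosphatase gene G6pc had 881 CPM in nephrectomy and 657 CPM in sham nuclei. Of 21 organic anion and cation carriers 4 were higher and 1 lower. The efflux pump gene Abcb1b had 31.4 CPM in nephrectomy and 6.16 CPM in sham nuclei, with ratios of 5.10 (3.76 to 7.07) in all S1-like nuclei, 4.69 in cluster 1 and 4.09 in cluster 3, and Abcc4 had 641 and 182 CPM.

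Genes of vitamin D activation and breakdown were both higher in nephrectomy nuclei. Cyp27b1, the kidney enzyme that makes active vitamin D, lies on the plus strand at chr10:127048250-127053006 and had 51.3 CPM in nephrectomy and 11.5 CPM in sham S1-like nuclei, a ratio of 4.45 (3.56 to 5.64). Its ratio was 3.06 (2.11 to 4.57) in cluster 1 and 5.78 (2.56 to 16.2) in cluster 3. Cyp24a1, which inactivates vitamin D, had 352 CPM in nephrectomy and 160 CPM in sham nuclei, a ratio of 2.19 (2.06 to 2.34). Of the 14 genes of phosphate and vitamin D handling 2 were higher and 2 lower. The lower ones were the phosphate carrier Slc34a3, with 29.9 and 55.7 CPM, and the FGF23 co-receptor gene Kl, with 218 and 365 CPM. In cluster 1 the ratios of Cyp24a1, Slc34a3 and Kl were 1.30, 0.79 and 0.915.

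Of 25 measured tubular injury genes 7 were higher and 4 lower in nephrectomy S1-like nuclei, with medians of 0.21 in all S1-like nuclei, 0.52 in cluster 1 and -0.04 in cluster 3. Havcr1, the kidney injury molecule KIM-1, had 10 UMIs in nephrectomy and 1 UMI in sham nuclei, a ratio of 6.59 with an interval of 0.937 to 286. The adhesion molecule gene Vcam1 had 73 UMIs in nephrectomy and 9 UMIs in sham nuclei, of which 47 and 0 lay in cluster 1. Few nuclei held these UMIs, since 870 of 899 nephrectomy and 675 of 685 sham nuclei had no UMI of Havcr1 or Vcam1. Osteopontin (Spp1) had 393 CPM in nephrectomy and 186 CPM in sham nuclei, a ratio of 2.11 (1.99 to 2.24), against 659 and 526 CPM in thick ascending limb-like nuclei. Itgb6, an integrin subunit of the same list, was lower, with 96.9 CPM in nephrectomy and 387 CPM in sham nuclei.

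The complement gene C3 had the highest ratio of the ranked genes, with 148 UMIs in nephrectomy and 6 UMIs in sham nuclei, 16.2 times higher (7.29 to 45.0). In cluster 1 it had 70 and 0 UMIs, at least 6.66-fold higher when a floor of 3 counts is set for the sham nuclei, and in cluster 3 it had 15 and 0 UMIs, at least 1.88-fold higher by the same floor. Of 15 measured complement genes 7 were higher and 4 lower. Of 18 NF-kappaB, chemokine and adhesion genes 9 were higher and 0 lower, with medians of 0.62 in all S1-like nuclei and 0.13 in cluster 1. Of 26 interferon and antigen presentation genes 10 were higher and 1 lower, with medians of 0.33 and 0.72. The interferon-induced gene Ifit2 had 60 UMIs in nephrectomy and 10 UMIs in sham nuclei, and the NF-kappaB subunit gene Relb had 49 and 9 UMIs.

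Others of the 15 highest genes were Aldh1a1, Cfap77, Ikzf4, Bbox1, Depp1, Iigp1, Lrat and Fgg, with ratios of 3.92 to 5.93. Aldh1a1, which makes retinoic acid, had 13.2 CPM in nephrectomy and 2.23 CPM in sham nuclei. Bbox1, which completes carnitine synthesis, had 13.8 and 3.28 CPM. Lrat, which stores retinol as ester, had 13.5 CPM in nephrectomy and 3.41 CPM in sham nuclei. These 8 genes were at most 39.3 CPM in either library. Iigp1, an interferon-induced GTPase gene, had a log2 ratio of 1.996 over summed UMIs but 0.32, under 1.5-fold, when each nucleus had equal weight, and 3.76 without clusters 2, 7 and 8. Fgg, a fibrinogen chain gene, had a log2 ratio of 1.97, and 0.27 in cluster 3.

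Others of the 15 lowest genes were Cntnap5a, Chrna7, Car3, Dleu7, Nebl and Ces1g. Chrna7, a nicotinic receptor subunit, had 90 UMIs in nephrectomy and 234 UMIs in sham nuclei, and in cluster 1 its ratio turned to 1.18 (0.674 to 2.18). Nebl had a log2 ratio of -1.69, and -0.53 without clusters 2, 7 and 8. Chrna7 is among the 10 leading genes of cluster 4, which is almost wholly sham. The counts of Cyp4a12b, Slc22a28, Slc22a29, Ces1g, Cyp2d9, Abcb1b and Iigp1 are uncertain, since each has close copies in the mouse genome between which reads can be split.

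**Figure D4:**
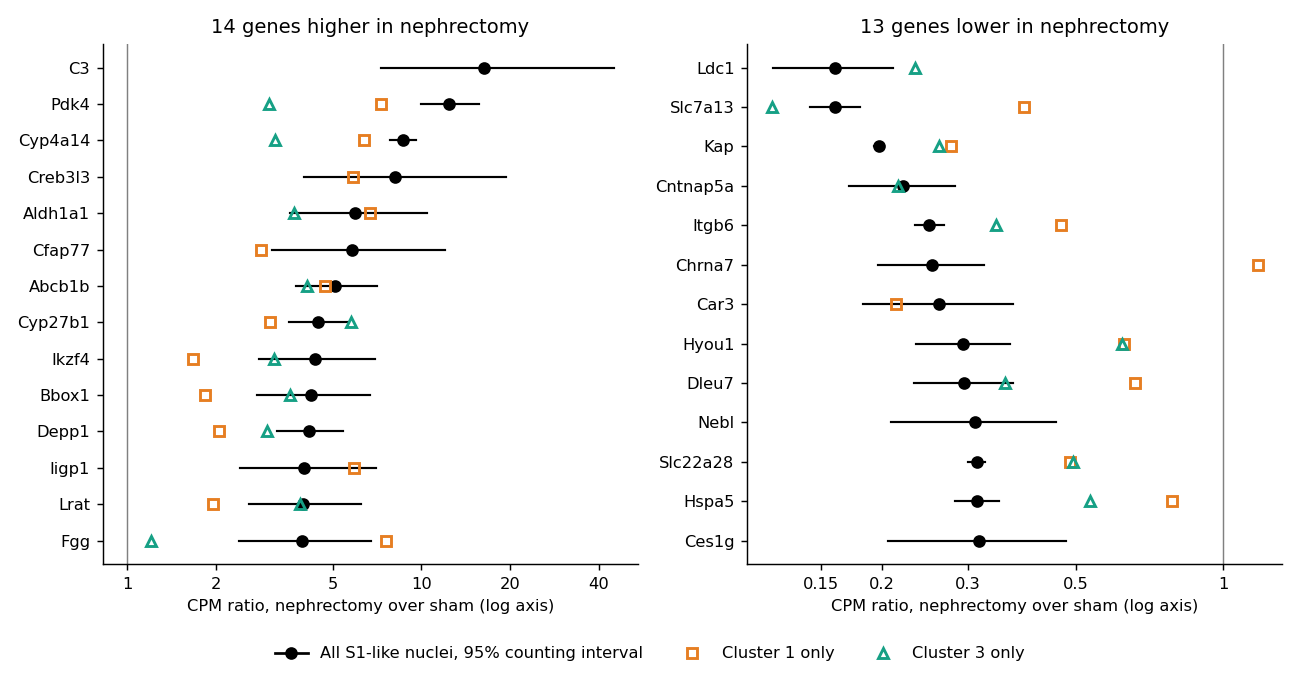
CPM ratio of nephrectomy over sham (log axes) for 14 of the 15 genes with the highest and 13 of the 15 with the lowest ratio in S1-like nuclei, black points with 95% counting intervals, orange squares cluster 1 and green triangles cluster 3 (drawn from 20 UMIs with at least 1 UMI in each library). Pdk4 is 12.4 over all nuclei, 7.28 in cluster 1 and 3.02 in cluster 3, while Chrna7 crosses 1 in cluster 1 and Hspa5 comes near it.

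Chondroitin sulfate synthesis was the pathway in the study's title. Of 19 measured members 2 were higher and 4 lower, with a median log2 ratio of -0.23. Csgalnact1, which adds the first galactosamine of a chondroitin chain, had 121 CPM in nephrectomy and 103 CPM in sham S1-like nuclei, a ratio of 1.17 (1.08 to 1.28). It stayed under 1.5-fold within clusters 1 and 3. In nuclei with S1 markers at 1% of UMIs or more its log2 ratio was 0.81, the highest of the list. Its level differed by cluster, with 17.1 CPM in cluster 4 and 44.9 CPM in cluster 1. Clusters 5 and 6 had 184 and 181 CPM. Chst11, a chondroitin 4-sulfotransferase gene, had 79.7 CPM in nephrectomy and 150 CPM in sham nuclei, and Ust, which sulfates uronic acid, had 39 and 13 UMIs. Without clusters 2, 7 and 8 Chst11 was still the lowest member, at a log2 ratio of -0.92. Within cluster 1 or cluster 3 it was not among the members past 1.5-fold.

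Of 14 genes of later segments 2 were higher and 6 lower, with medians of -0.43 in all S1-like nuclei, -0.04 in cluster 1 and -1.04 in cluster 3. Of 22 clock and glucocorticoid genes 6 were higher and 2 lower, and the median turned in sign, at 0.24 in all S1-like nuclei, -0.22 in cluster 1 and 0.03 in cluster 3. Of 34 genes of growth and nutrient signalling 8 were higher and 0 lower, and the protease gene Pappa among them had 46.9 and 5.11 CPM. Thick ascending limb-like nuclei had more Pappa, 82.6 CPM in nephrectomy and 41.4 CPM in sham nuclei. Of 22 proximal tubule transcription factors 0 were higher and 2 lower, Bcl6 with 55.3 and 134 CPM among them, at ratios of 0.43 in cluster 1 and 0.481 in cluster 3. Of 23 endocytosis and lysosome genes 0 were higher and 2 lower, of which the megalin chaperone gene Lrpap1 had 68.3 CPM in nephrectomy and 118 CPM in sham nuclei.

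Of 15 glycolysis genes 1 was higher and 1 lower, and of 14 peptidase and renin-angiotensin genes 0 and 3. Of 25 stress, NRF2 and glutathione genes 2 were higher and 5 lower, Hspa5 and Xbp1 among the lower ones, which is 28% past 1.5-fold in either direction. At 20 UMIs the shares of all genes were 10.6% higher and 10.9% lower. Of 31 matrix and TGF-beta genes 4 were higher and 5 lower, with a median of -0.13, but without clusters 2, 7 and 8 the count was 7 higher and 2 lower of 26 and the median turned to 0.29. Of 13 mitochondrially encoded genes 0 were higher and 4 lower, with a median of -0.37, and without clusters 2, 7 and 8 the count was 3 higher and 0 lower, with a median of -0.001.

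**Figure D5:**
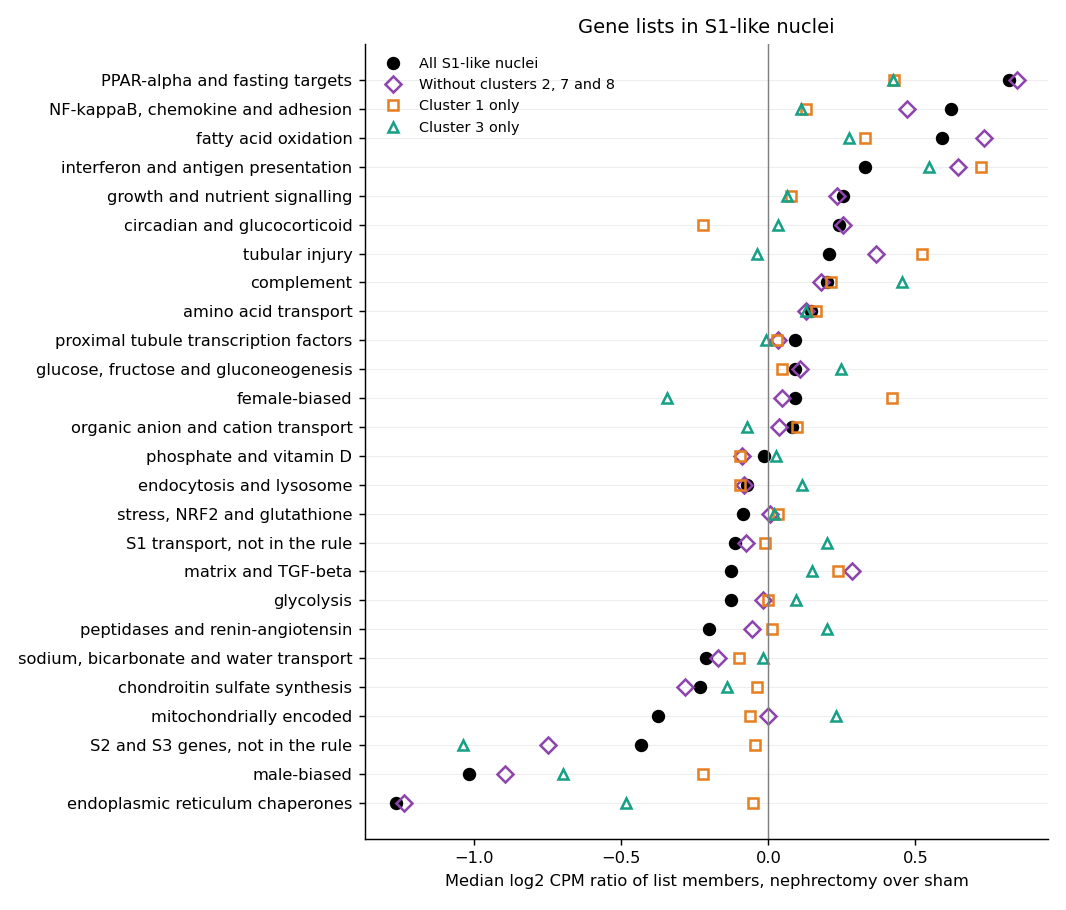
Median log2 CPM ratio of nephrectomy over sham for the 26 gene lists, black circles all S1-like nuclei, purple diamonds without clusters 2, 7 and 8, orange squares cluster 1 and green triangles cluster 3. The PPAR-alpha and fasting list stays above 0 in all 4 sets (0.82, 0.85, 0.43 and 0.42), while the chaperone list goes to -0.05 in cluster 1 against -1.26 in all nuclei.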

How the data were processed

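Raw UMI counts for 32285 genes per barcode were deposited by the authors, who made them with Cell Ranger on mm10. Its version is 7.1.0 per the submitters' processing notes and 7.0.1 per the file headers. Counting of intronic reads is not given in the sources used here. Positions come from GENCODE M21 (GRCm38), in which 32235 of 32285 identifiers were found.

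Nuclei were chosen by the marker rule, their counts summed by library, and ratios given an exact conditional binomial interval, sums an exact Poisson and shares an exact Clopper-Pearson interval, all at 95% and for counting error only. A count under 3 was set to 3 for ranks and list medians. Shares of nuclei with a UMI were taken after thinning each nucleus to 2000 UMIs. Scrublet called 0 sham and 1 nephrectomy nuclei as doublets, so it has not worked and no doublets were removed. S1-like nuclei were clustered together (Leiden, resolution 0.6, 20 principal components, 15 neighbours) on 2021 genes without the rule's genes and the fixed lists.

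Named genes had at least 100 UMIs, a ratio of at least 2 either way and, in the higher library, at least the CPM of thick ascending limb-like nuclei. The 15 highest and 15 lowest were eligible, as were 12 and 8 genes of S1-like against S2-like nuclei and the extremes of each list, or up to 6 members by role. Chaperone genes, the promoter motif, values of the rule's genes by cluster, and Pappa's level elsewhere were chosen after values were seen. The members and lists were chosen with earlier results of these data known. Some genes are not reported here. The ratios and intervals were tried on counts simulated with counting error only. Variation between nuclei, clusters or animals was not simulated. Software was Python 3.11.15, numpy 2.4.6, scipy 1.17.1, scanpy 1.11.5 and leidenalg 0.10.2, and TMM factors came from edgeR 4.0.16 in R 4.3.3.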

Additional observations from a re-analysis of the deposited data

How the results depend on the processing

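No paired analysis was possible because each group is 1 library and no test was made. Against 1055 higher and 1145 lower genes between nephrectomy and sham S1-like nuclei, thinning to 2000 UMIs gave 665 and 669, a minimum of 200 UMIs gave 534 and 591, and a minimum of 1 UMI gave 2168 and 2456. The subsets by cluster and by S1 marker share were chosen after seeing the data. Cluster 1 alone gave 658 and 531, and cluster 3 alone 648 lower genes, while leaving out clusters 2, 7 and 8 gave 1069 and 851. Against S2-like nuclei, 526 higher and 370 lower genes became 229 and 195 after thinning and 225 and 211 at 200 UMIs per library. Fewer genes or UMIs were tested in each of these but the minimum of 1 UMI, which tested more. Within 1.5 times stayed 35 counts, those without clusters 2, 7 and 8 among them. Of the 30 genes named by rank, 2 turned in direction in 1 setting each, Chrna7 to a log2 ratio of 0.24 in cluster 1 and Nebl to 0.0072 in cluster 3, where it had 8 and 2 UMIs. Under 1.5-fold in at least 1 setting were 7 of the 30, 3 in cluster 1 and 3 in cluster 3. The medians of 13 of the 26 lists turned in sign in clusters 1 or 3 or without clusters 2, 7 and 8, none of them past 0.374 in size over all S1-like nuclei. With 1 library a group, differences between animals, surgeries and library preparations cannot be told apart.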
